A study of Mus musculus with 6 samples.

Results

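The potassium channel genes were taken as every row of the gene count table whose Ensembl identifier belongs to a protein-coding gene of GENCODE M21 with a symbol that starts with Kcn, leaving out Kcne3, Kcnj8 and Kcnk9. This gave 74 members among the 17068 genes of the table. GENCODE M21 holds 91 genes under the same rule, and the other 17 were not analysed here. The identifier version was that of M21 for 69 members, and 5 members (Kcnj15, Kcng3, Kcnj6, Kcnk12 and Kcnn2) were matched on the identifier without its version. The rule reads symbols alone, but the table had already been filtered by the authors for genes with few counts.

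The data are bulk RNA-Seq of total RNA from E12.5 mouse lateral cortex, collected to ask how gene expression differs when Foxp1 is deleted in cortical radial glia. All 6 samples came from female embryos of the c57/bl6 strain, and each gave 1 library. The control group held 4 Cre-negative embryos, of which controls 1, 2 and 4 were Foxp1 fl/+ and control 3 was Foxp1 fl/fl, so every library carried at least 1 floxed allele. The other group, labelled Foxp1cKO, held 2 Foxp1 fl/fl embryos that also carried Emx1Cre. Emx1Cre acts in dorsal telencephalic progenitors and their progeny, so blood vessels, red cells, microglia and ventrally born interneurons in the dissected tissue lie outside the cells it targets. Library totals ran from 50076008 to 78346979 counts.

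Potassium channels let potassium ions leave or enter a cell and thereby set the resting potential, end action potentials and limit repetitive firing. Voltage-gated, calcium- or sodium-activated and inward rectifier subunits assemble around 1 central pore, two-pore-domain subunits give the background leak, and auxiliary subunits alter the gating or trafficking of the pore-forming ones. In the embryonic cortex potassium conductances are found in dividing radial glia, in young neurons, and in the cells of vessels and blood.

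The pore-forming members share a short stretch that the choice by symbol did not use: the selectivity filter, which coordinates the potassium ions. Coding sequences of GENCODE M21 transcripts were searched for a threonine or serine codon, any codon, a glycine codon, a tyrosine, phenylalanine or leucine codon and a second glycine codon. All 62 pore-forming members held at least 1 match, all 8 two-pore-domain members held 2, and none of the 12 auxiliary members held any. Kcna6 and Kcnh2 each held a match beside the filter itself. The 7 stretches below show how the filter varies across families whose genes the results turn on, with the 15 bases of the matched codons in capitals and 6 bases on either side:
Kcna3: atgacaACTGTTGGTTATGGTgatatg
Kcnc4: atgacaACGCTTGGCTATGGGgacatg
Kcnh7: ctaaccAGTGTAGGATTTGGAaatgtg
Kcnj2: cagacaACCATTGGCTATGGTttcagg
Kcnj10: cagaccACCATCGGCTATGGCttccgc
Kcnk10, second pore: ctgaccACAGTAGGCTTTGGTgatttt
Kcnk1, second pore: ctgagcACCATCGGCCTGGGGgactat

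In Kcna3, Kcnc4, Kcnj2 and Kcnj10 the codon between the glycines encodes tyrosine. In Kcnh7, a relative of the ERG channels, and in the second pore of Kcnk10 it encodes phenylalanine, and in the second pore of Kcnk1 leucine. Each stretch lies in the coding part of a single exon of GRCm38 (mm10). Their positions are chr3:107037605-107037631 (plus strand) for Kcna3, chr3:107447793-107447819 (minus strand) for Kcnc4 and chr2:62777337-62777363 (minus strand) for Kcnh7. The inward rectifier stretches lie at chr11:111072201-111072227 for Kcnj2 and chr1:172369296-172369322 for Kcnj10, both on the plus strand. Those of the two-pore-domain genes lie at chr12:98440599-98440625 (minus strand) for Kcnk10 and chr8:126025323-126025349 (plus strand) for Kcnk1.

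Several facts of the libraries touch the results. Foxp1 itself, counted over the whole gene, stood at 59.7, 60.8, 71.2 and 79.1 CPM (counts relative to library size, scaled by the trimmed mean of M-values) in controls 1 to 4 and at 83.2 and 76.8 CPM in the libraries labelled Foxp1cKO 1 and 2, so it was not lower in the latter (edgeR log2 fold change 0.24, SE 0.13, adjusted p = 0.468). Reads were summed per gene and not per exon, so whether the floxed part was deleted was not tested. The paper, citing earlier work, places Cre recombination and a significant loss of Foxp1 protein before the stage sampled here. Groups are named as labelled. Controls 3 and 4 stood furthest apart, with a chi-square per gene of 193 between them. It was 25.9 to 89.8 for the other control pairs and 31.4 for the Foxp1cKO pair. This measure is taken on raw counts and also rises with library totals, which were largest among the controls in controls 3 and 4. Of 18 neuron markers 17 were in the table, and their mean log2 CPM was 7.47, 7.71, 7.98 and 7.02 in controls 1 to 4 and 7.53 and 7.58 in the Foxp1cKO libraries. The 9 ventral telencephalon and interneuron markers summed to 235, 362, 845 and 262 CPM in controls 1 to 4. In Foxp1cKO 1 and 2 they summed to 529 and 392 CPM, above every control except control 3. Nkx2-1, a ventral factor, was at 13.2 CPM in control 3 and at 0.22 to 1.07 CPM elsewhere. The 9 red cell markers summed to 1100 to 1451 CPM in controls 1 to 3 and to 3544 CPM in control 4. In the Foxp1cKO libraries they summed to 3849 and 4143 CPM. Hbb-y made up most of each sum. Hbb-bs did not follow, at 109, 67.8, 71.7 and 82.6 CPM in controls 1 to 4 and 70.5 and 76.6 CPM in Foxp1cKO. In bulk tissue, fewer cells of a type and less RNA per cell cannot be told apart.

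The members with the highest levels per length in the control cortex came from several families. On the scale of control CPM per kb of merged exon, which allows levels to be compared between genes, members began at 0.057. Their median was 1.07, below the median of 4.60 over all genes. Where only genes with a control mean of at least 10 CPM were counted, the medians were 3.61 for members and 11.0 for all genes. Without regard to length, 26 members had a control mean of at least 10 CPM and 16 lay under 1 CPM, where the 3-count floor of a library corresponds to 0.038 to 0.060 CPM. Among the highest members per kb were Kcna3 (12.4), Kcnip3 (7.85), Kcnd3 (7.33), Kcnk10 (7.02), Kcnn2 (6.56), Kcnk5 (6.32) and Kcnh7 (5.92). They came from 6 of the 9 families into which the members were grouped. Kcnq3, a Kv7 gene, reached 5.52 CPM per kb.

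**Figure D1:**
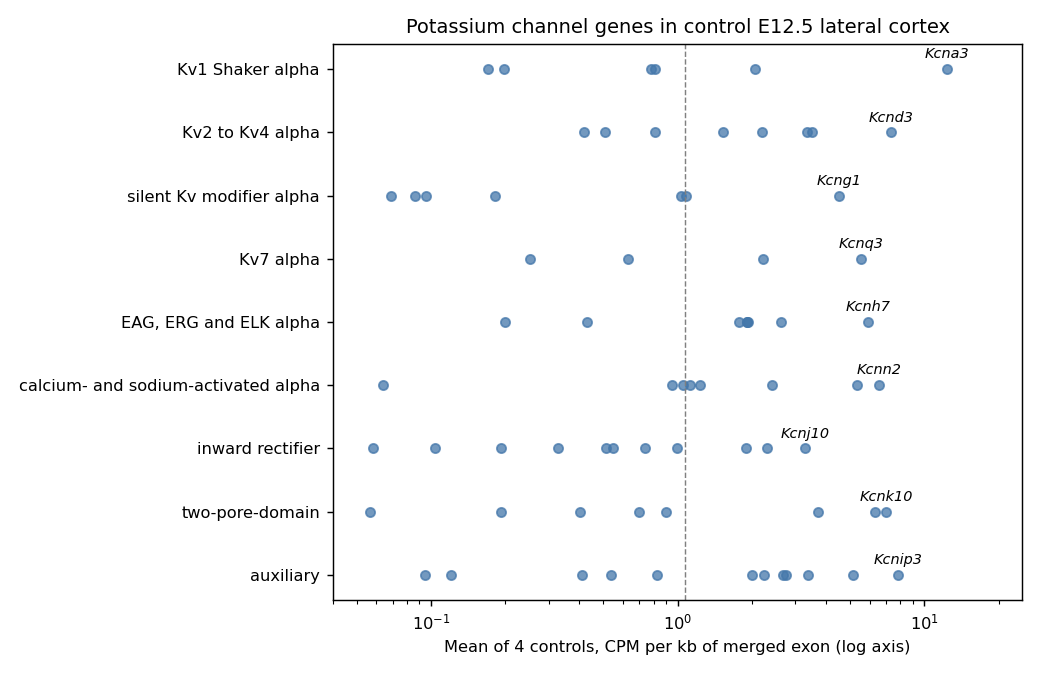
Mean level of each of 72 members over the 4 controls in CPM per kb of merged exon (log axis), 1 point per gene, by family. The highest plotted member of each family is named and the dashed line marks the median of all 74 members, 1.07. Kcna3 is at 12.4, and inward rectifiers end at 3.28 with Kcnj10.

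Kcnq3, a Kv7 subunit that limits repetitive firing, was at 84.6, 94.1, 115 and 31.2 CPM in controls 1 to 4 and at 61.5 and 92.2 CPM in the Foxp1cKO libraries. Control 3 was the highest and control 4 the lowest of all 6 libraries, and both Foxp1cKO libraries lay between them (log2 fold change -0.08, SE 0.46, adjusted p = 0.962).

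Kcna3, a Shaker-type delayed rectifier also known from lymphocytes, was at 21.2, 23.9, 27.5 and 21.4 CPM in the controls and at 21.6 and 24.5 CPM in the Foxp1cKO libraries (log2 fold change -0.03, SE 0.14, adjusted p = 0.955). Kcnd3, an A-type channel, was at 59.1, 78.5, 91.8 and 51.5 CPM against 67.4 and 80.7 CPM (0.08, SE 0.23, adjusted p = 0.917). Kcnip3, a calcium-binding KChIP that accompanies A-type channels, was at 31.0, 26.9, 33.0 and 20.4 CPM against 23.3 and 20.2 CPM (-0.36, SE 0.20, adjusted p = 0.480). The groups overlapped for all 3 genes, and control 3 was the highest library for each.

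Kcnh7, an ERG-type channel, varied least among the controls of all members: it was at 94.1, 85.9, 89.4 and 91.2 CPM, an SD of 0.055 in log2 CPM, and at 94.7 and 84.8 CPM in the Foxp1cKO libraries (log2 fold change -0.01, SE 0.08, adjusted p = 0.983). Kcnn2, a small-conductance calcium-activated channel, was at 50.7, 50.1, 57.5 and 37.6 CPM against 48.1 and 55.7 CPM. Kcnk5, an acid-sensitive leak channel, was at 20.5, 18.1, 15.3 and 32.2 CPM against 25.4 and 22.6 CPM, so here control 4 was the highest and control 3 the lowest library. Kcnj10, an inward rectifier best known from glia, was at 18.2, 21.1, 15.0 and 16.6 CPM against 18.5 and 21.03 CPM, with control 3 again lowest. None of these 3 passed the test (adjusted p = 0.862, 0.850 and 0.694).

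No potassium channel gene passed an adjusted p of 0.05 between Foxp1cKO and control in edgeR's quasi-likelihood test, in either direction. Over all genes the same test called 26 higher, 0.152% of those tested, and none lower (0.0%). The smallest adjusted p among the members was 0.178, for Kcnj2. An unadjusted p under 0.05 was reached by 11 members, 10 with a positive and 1 with a negative log2 fold change, which is 14.9% of members beside a background of 13.0% of all genes. DESeq2's Wald test called 3 members higher (Kcnj2, Kcnip4 and Kcnq1), beside 2.06% of the genes to which it gave an adjusted p, and 1 lower (Kcne1l), beside 1.31%. DESeq2 gave no adjusted p to 7 members, all under 1 CPM in the control mean.

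A positive log2 fold change was fitted for 54 members (73%, beside 49.3% of all genes) and a negative one for 20. The median was 0.15, beside a median of -0.0044 over all genes. The median SE of a member was 0.31, larger than that median effect. That median moved with the control library taken as the reference: the median log2 difference of the Foxp1cKO mean was 0.32 from control 1, 0.13 from control 2, -0.14 from control 3 and 0.54 from control 4. Averaged over the 74 members, log2 CPM was 2.13, 2.34, 2.57 and 1.92 in controls 1 to 4, a mean of 2.24 ± 0.28 (SD, n = 4), and 2.37 and 2.62 in the Foxp1cKO libraries, a mean of 2.50 ± 0.18 (SD, n = 2). The difference of 0.26 was thus smaller than the control SD, and Foxp1cKO 1 lay inside the control range.

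**Figure D2:**
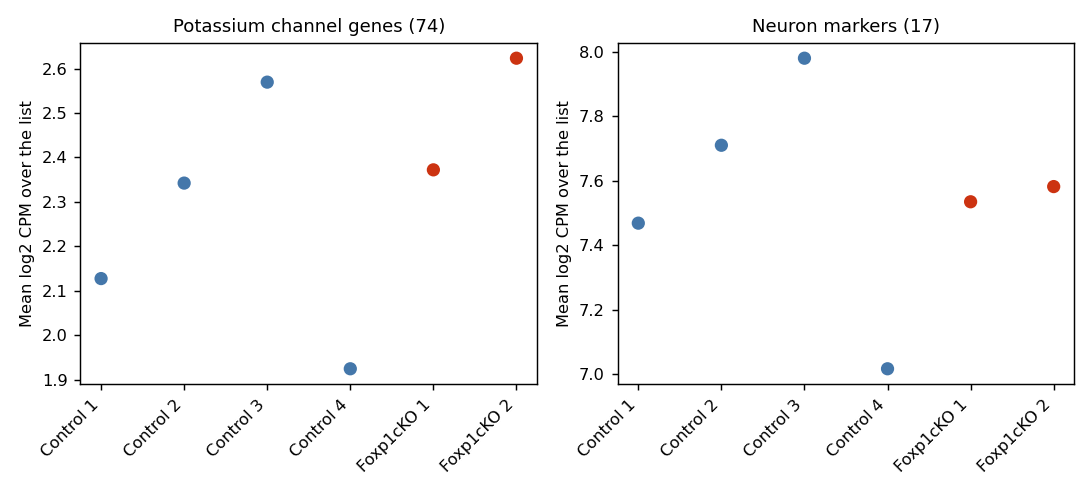
Mean log2 CPM in each library over the 74 potassium channel genes (left) and over the 17 neuron markers in the table (right), controls in blue and Foxp1cKO in red. The controls rank 4, 1, 2, 3 from low to high in both panels, from 1.92 to 2.57 for the channel genes, while the Foxp1cKO libraries stand at 2.37 and 2.62.

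The spread among controls exceeded the group difference for most members. The SD of log2 CPM over the 4 controls had a median of 0.44 over members and 0.20 over all genes, and it was 0.33 beside 0.13 where only genes with a control mean of at least 10 CPM were counted (26 members and 10069 genes). The range over controls had a median of 0.94 log2 units, against a median size of 0.28 for the group difference. The difference was larger than the control SD for 22 members (29.7%, beside 45.5% of all genes) and larger than the control range for 6 (8.11%, beside 16.8%). These 6 were Kcnj2, Kcnip4, Kcnq1, Kcne1l, Kcnj15 and Kcnj4. Both Foxp1cKO libraries lay above all 4 controls for 9 members (12.2%, beside 11.5% of all genes) and below them for 1 (1.35%, beside 13.1%), and the groups overlapped for the other 64. The share above was close to its background.

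Both counts moved with the libraries that entered, and so did the same counts over all genes. Leaving out control 3 raised the members beyond the control range from 6 to 20 (27.0%, beside 31.2% of all genes), leaving out control 4 to 16 (21.6%, beside 33.2%) and leaving out control 1 to 12 (16.2%, beside 21.8%). The members whose groups do not overlap, 10 or 13.5% beside 24.6% of all genes with every library, became 22 without control 3 (29.7%, beside 38.2%) and 18 without control 4 (24.3%, beside 39.4%). With a single Foxp1cKO library they were 30 without Foxp1cKO 1 (40.5%, beside 40.5%) or 21 without Foxp1cKO 2 (28.4%, beside 46.8%).

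**Figure D3:**
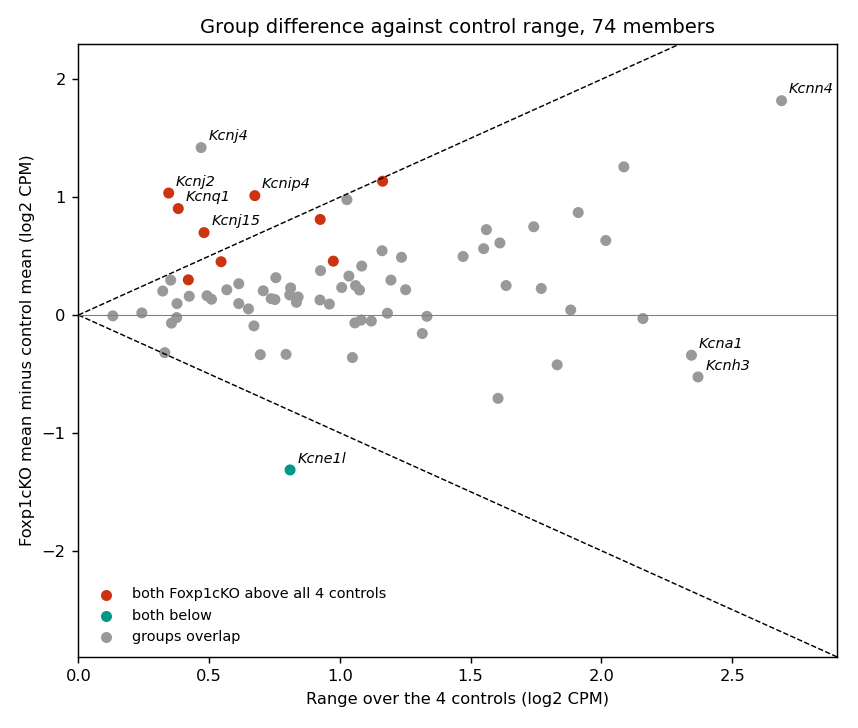
Difference between the Foxp1cKO and control means against the range over the 4 controls, both in log2 CPM (prior count 2), 1 point per member. On the dashed lines both are equal. The 6 members beyond the lines (Kcnj2, Kcnip4, Kcnq1, Kcnj15, Kcnj4 and Kcne1l) have control ranges under 0.81, and Kcnn4, Kcnh3 and Kcna1 lie at the right end with ranges over 2.3.

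The spread had a direction. Control 3 was the highest of the controls for 48 members (64.9%, against 31.2% of all genes) and control 4 the lowest for 40 (54.1% against 30.3%), with both true of 29 members, 39.2% beside 19.0% of all genes. Control 3 exceeded control 4 for 61 of 74 members, by a median of 0.61 log2 units, while the median over all genes was -0.035. The pattern was not particular to potassium channels. Of 28 voltage-gated sodium and calcium channel genes, control 3 was the highest control for 22, and control 4 was also the lowest for 16. Their median control SD was 0.53 log2 units. Of 28 potassium transporters, pumps and channel partners, the same counts were 16 and 10, and the median control SD was 0.28. The order 4, 1, 2, 3 of the neuron marker mean was followed by 17 members (23.0%, beside 13.4%). It was also followed by 13 of the 28 sodium and calcium channel genes and by 12 of the 17 neuron markers themselves. Among the neuron markers that departed from it, Neurod6 was highest among the controls in control 1, and Neurod2 and Tbr1 in control 2. The part of neuron or ventral cell content in this order was not tested beyond a fit with the neuron marker mean as a covariate. In that fit the members' median was 0.22, and 1 member, Kcnj2, passed the threshold (log2 fold change 1.05, SE 0.17, adjusted p = 0.0423). The same fit called 279 of all genes, 196 of them higher, against 26 in the fit on group alone. Control 3 is the only Foxp1 fl/fl control, so its genotype and its dissection or library cannot be told apart.

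By family, the median control SD ran from 0.26 to 0.65 log2 units, lowest in the inward rectifiers and highest in the silent modifiers, and no test between families was made. The 9 Kv2 to Kv4 genes (delayed rectifiers and A-type channels) were all highest in control 3 among the controls, and their summed CPM was 159, 195, 250 and 141 in controls 1 to 4 and 211 and 212 in the Foxp1cKO libraries. All 9 had a positive log2 fold change, from 0.08 to 0.73 with a median of 0.22, none passed the adjusted threshold and 1 had an unadjusted p under 0.05. Of the 8 EAG, ERG and ELK genes 7 were highest in control 3, and 4 fold changes were positive and 4 negative (median 0.038). The 5 Kv7 genes had 3 positive and 2 negative fold changes and a median of 0.058. The 6 Kv1 genes split into 3 and 3 by sign, and the 7 silent modifier genes, which act only in complexes with other Kv subunits, into 5 positive and 2 negative.

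Control 3 was highest among the controls for 2 of 11 inward rectifier genes and for 4 of 8 two-pore-domain genes. The inward rectifiers had a median log2 fold change of 0.22 and 3 genes with an unadjusted p under 0.05, all positive. Their summed CPM was 52.5, 58.4, 49.6 and 46.6 in the controls and 54.1 and 64.7 in the Foxp1cKO libraries. The two-pore-domain genes summed to 98.1, 108, 114 and 112 CPM against 134 and 121 CPM, so both Foxp1cKO sums lay above the controls. Kcnk10 was the highest of these genes in every library. Their mean log2 CPM was 1.66, 1.85, 1.84 and 1.56 against 1.80 and 2.05, so on that scale Foxp1cKO 1 lay inside the control range. The 8 calcium- and sodium-activated genes had 7 positive fold changes and a median of 0.19. The 12 auxiliary genes had 8 positive and 4 negative fold changes, from -1.26 to 1.77, with a median of 0.12.

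**Figure D4:**
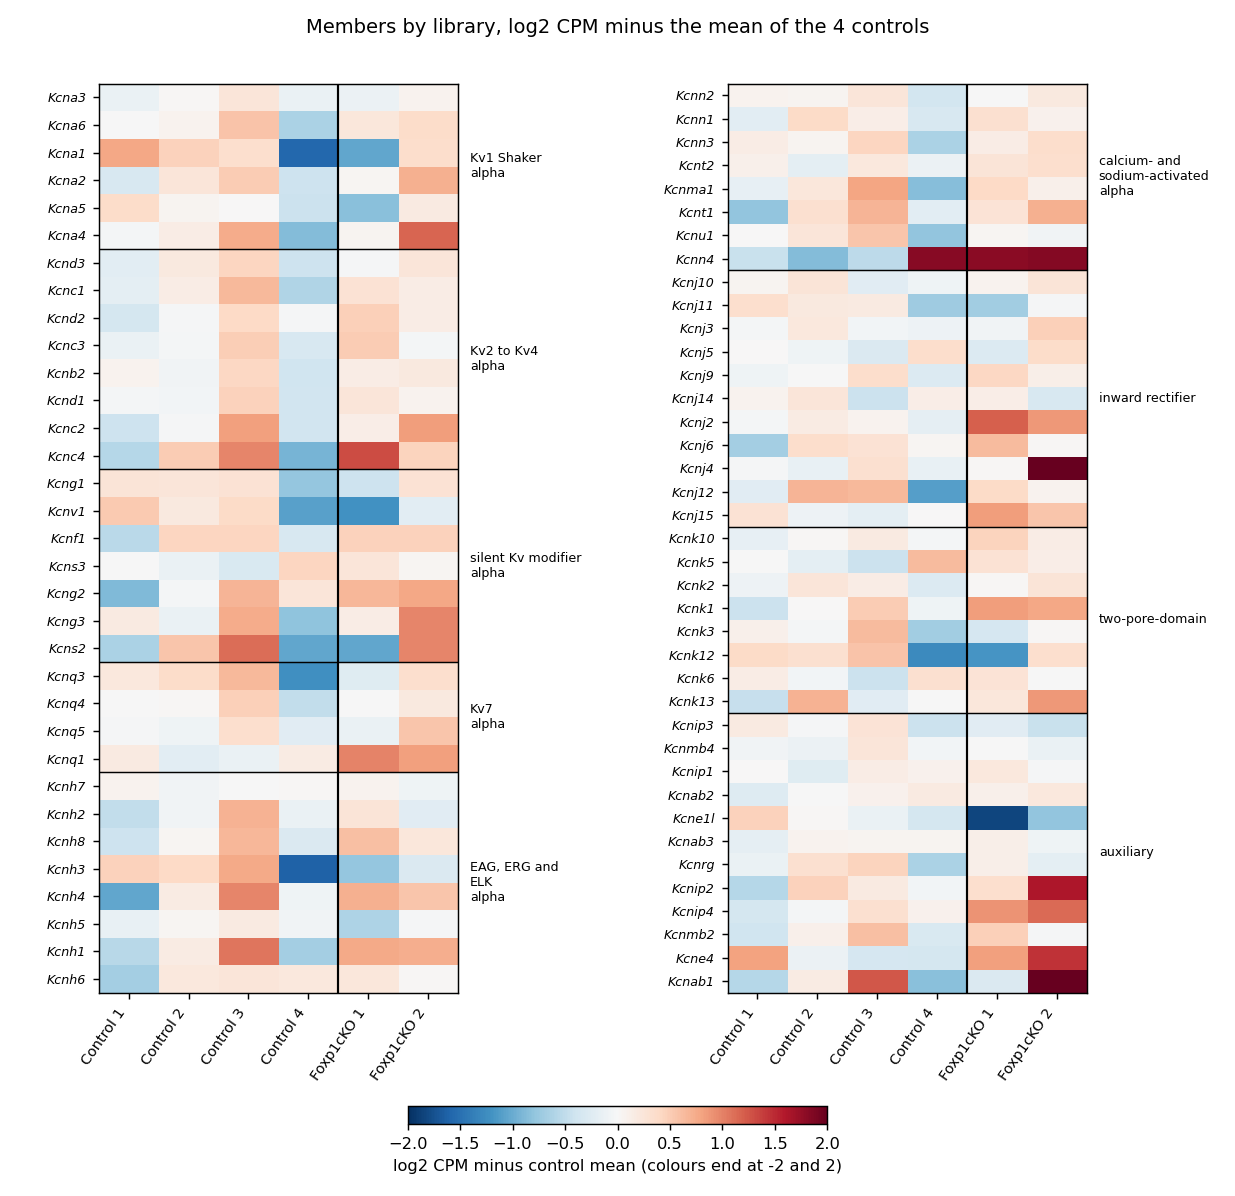
Log2 CPM of 72 members in each library minus the mean of the 4 controls, with members grouped by family and ordered by level per kb, in 2 panels (colours end at -2 and 2). Control 3 is mostly red and control 4 mostly blue in the voltage-gated families, Kcnn4 is red in control 4 and both Foxp1cKO libraries, and Kcnj4 and Kcnab1 are dark red in Foxp1cKO 2.

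Among the 11 members with an unadjusted p under 0.05, the inward rectifier Kcnj2 had the smallest. Kcnj2 (ENSMUSG00000041695.2, chr11:111066164-111076821, plus strand) encodes a strong inward rectifier that holds the resting potential near the potassium equilibrium. It was at 2.70, 3.11, 2.91 and 2.44 CPM in controls 1 to 4 and at 6.40 and 5.11 CPM in the Foxp1cKO libraries. The lower Foxp1cKO library stood above the highest control, and the group difference of 1.04 log2 units was 3 times the control range of 0.34. The fitted log2 fold change was 1.05 (SE 0.19, adjusted p = 0.178 in edgeR and 9.3e-05 in DESeq2), and it stayed between 0.88 and 1.18 when single libraries were left out.

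Kcnip4 (ENSMUSG00000029088.16, chr5:48389502-49524907, minus strand), a KChIP that alters inactivation of A-type channels, was at 1.50, 1.87, 2.41 and 2.04 CPM in the controls and at 3.62 and 4.26 CPM in the Foxp1cKO libraries. The groups did not overlap, and the log2 fold change was 1.01 (SE 0.23, adjusted p = 0.242 in edgeR and 0.00831 in DESeq2). Of its exon bases 4.63% are shared with 5730480H06Rik on the opposite strand, and the strand setting of the counting was not given in the sources used here. Its relative Kcnip2 was at 1.86, 3.81, 3.13 and 2.65 CPM against 3.52 and 8.56 CPM, so that only Foxp1cKO 2 stood above the controls (log2 fold change 1.08, SE 0.40, adjusted p = 0.343). Without Foxp1cKO 2 that value was 0.28.

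Kcnq1 (ENSMUSG00000009545.14, chr7:143106362-143427042, plus strand), a Kv7 channel best known from heart and inner ear, was at 1.16, 0.885, 0.933 and 1.16 CPM in the controls and at 2.07 and 1.83 CPM in the Foxp1cKO libraries (log2 fold change 0.91, SE 0.23, adjusted p = 0.242 in edgeR and 0.0341 in DESeq2). The groups did not overlap. The antisense transcript Kcnq1ot1 shares 121 bases, 2.96%, of the merged Kcnq1 exons and was at 28.6, 21.1, 29.7 and 33.3 CPM against 42.8 and 38.2 CPM (log2 fold change 0.52, SE 0.17, adjusted p = 0.302). Its part in the Kcnq1 counts was not tested.

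Kcne1l was the member that stood lower. This X-linked gene (ENSMUSG00000090122.3, chrX:142304752-142306294, minus strand) encodes a single-span KCNE subunit that modulates Kv7 channels. It was at 5.59, 4.14, 3.69 and 3.17 CPM in the controls and at 1.11 and 2.33 CPM in the Foxp1cKO libraries, both below every control (log2 fold change -1.26, SE 0.37, adjusted p = 0.286 in edgeR and 0.0307 in DESeq2). Another KCNE subunit, Kcne4, was at 0.549, 0.274, 0.233 and 0.229 CPM against 0.556 and 0.870 CPM. Both Foxp1cKO values of Kcne4 lay above the controls, the lower of them next to control 1 (log2 fold change 1.17, SE 0.44, adjusted p = 0.348).

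Kcnj4, another strong inward rectifier, had a log2 fold change of 2.09 (SE 0.65, adjusted p = 0.289) that came from 1 library. It was at 0.404, 0.370, 0.521 and 0.368 CPM in the controls, at 0.417 CPM in Foxp1cKO 1 and at 3.10 CPM in Foxp1cKO 2, and its fold change was -0.014 without Foxp1cKO 2. Kcnj15 was at 0.452, 0.338, 0.316 and 0.368 CPM against 0.676 and 0.554 CPM (log2 fold change 0.73, SE 0.28, adjusted p = 0.357). Its groups did not overlap, at a level under 1 CPM in every library.

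Kcnk1, a weakly conducting leak channel, was at 1.45, 1.96, 2.79 and 1.85 CPM in the controls and at 3.54 and 3.39 CPM in the Foxp1cKO libraries (log2 fold change 0.78, SE 0.27, adjusted p = 0.327). Kcnk10, a mechanically and thermally gated leak channel, was at 54.5, 62.4, 69.6 and 60.0 CPM against 83.2 and 68.3 CPM (0.30, SE 0.12, adjusted p = 0.373). For Kcnk1 the groups did not overlap, whereas Foxp1cKO 2 lay below control 3 for Kcnk10. Kcnf1 and Kcnt2 also had both Foxp1cKO libraries above the controls, at 6.50 and 6.53 CPM beside a highest control of 6.41 for Kcnf1 and at 10.1 and 10.7 CPM beside 9.81 for Kcnt2, with adjusted p = 0.614 and 0.480.

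**Figure D5:**
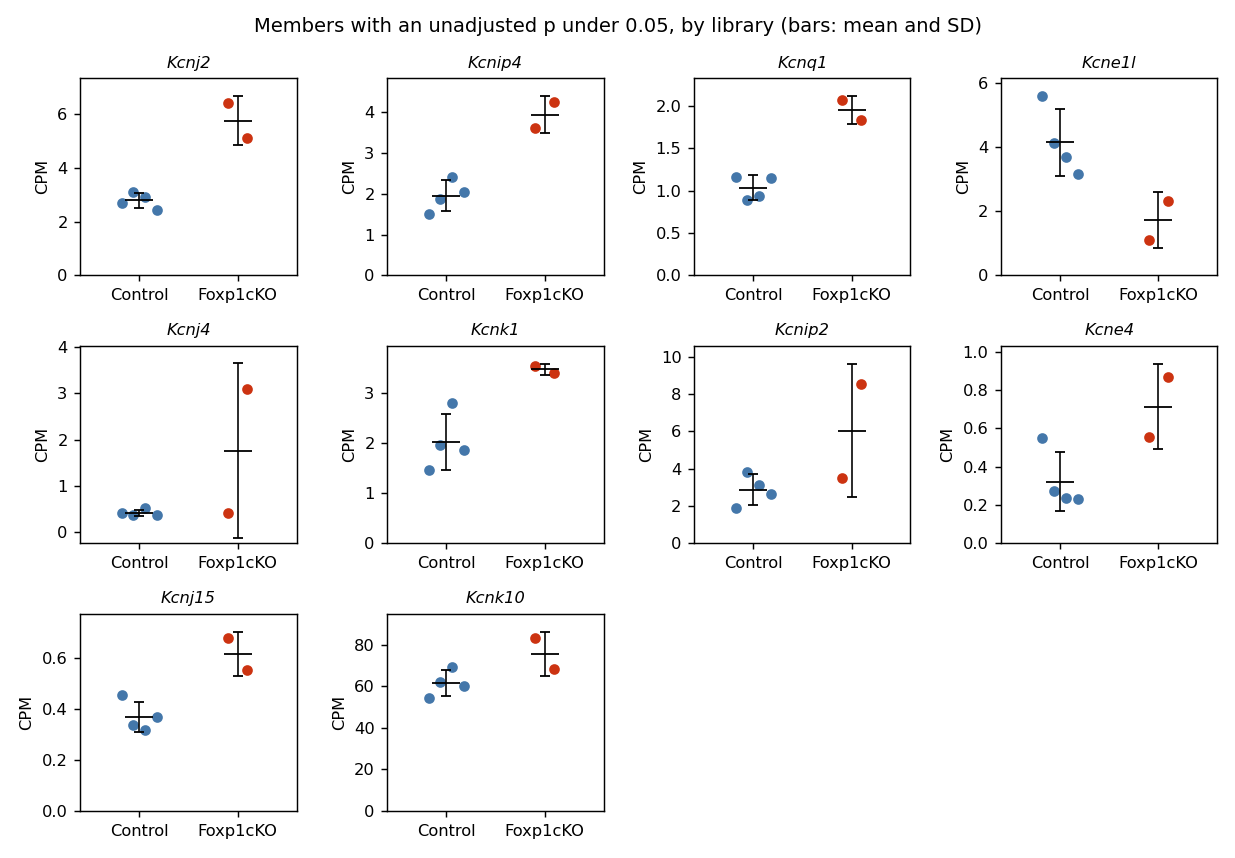
CPM in each library for 10 of the 11 members with an unadjusted p under 0.05 in edgeR, controls in blue (n = 4) and Foxp1cKO in red (n = 2), with mean and SD in black. Kcnj2, Kcnip4, Kcnq1, Kcnk1, Kcne4 and Kcnj15 have both Foxp1cKO points above the controls, Kcne1l has both below, and Kcnj4 and Kcnip2 have 1 high Foxp1cKO point.

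Markers of vessel and blood-derived cells are set beside this group of members. The 6 mural cell markers summed to 216, 200, 178 and 224 CPM in controls and 274 and 279 CPM in Foxp1cKO. Most of each sum was Notch3, at 120 to 160 CPM in the controls and 177 and 167 CPM in Foxp1cKO. All 6 of 6 log2 fold changes were above 0, 3 of them at an unadjusted p under 0.05. None passed the adjusted threshold in edgeR and 1 passed it in DESeq2. Both Foxp1cKO libraries lay above the controls for 3 markers (beside 11.5% of all genes). For the other 3 (Pdgfrb, Acta2 and Vtn) the groups overlapped. Defining markers such as Pdgfrb (16.9 to 27.7 CPM) were present in every library. The 9 endothelial markers summed to 149 to 228 CPM in the controls and to 207 and 255 CPM in the Foxp1cKO libraries. Of these, 6 log2 fold changes were above 0 and 3 below (median 0.024), Foxp1cKO 1 lay inside the control range, and 1 gene passed edgeR's threshold (Flt1, named after its values were seen) and 2 passed DESeq2's. The 9 microglia and macrophage markers summed to 23.9 to 38.5 CPM against 41.8 and 39.0 CPM, with 7 log2 fold changes above 0, 2 below and none past either threshold. The part of these cells in the values of Kcnj2, Kcnj15 and Kcne4 was not tested.

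The members that varied most among controls were Kcnn4, Kcnh3, Kcna1, Kcns2, Kcnab1 and Kcnc4. Kcnn4, the calcium-activated channel of red cells and lymphocytes, was at 0.161, 0.113 and 0.151 CPM in controls 1 to 3, at 0.889 CPM in control 4 and at 0.874 and 0.896 CPM in the Foxp1cKO libraries. Its 3 high libraries are the same 3 in which the red cell markers summed to 3544 to 4143 CPM, against at most 1451 CPM in the others. That split held for most of these markers, but Hbb-bs was highest in control 1. Hbb-bt was lower in Foxp1cKO 1 than in control 1. The log2 fold change of Kcnn4 was 1.40 (SE 0.79, adjusted p = 0.489) and became 2.63 (SE 0.32, adjusted p = 0.0427) without control 4. This was the single member call made with a library left out. That fit called 96 genes, 83 of them higher (0.486% of all genes), against 26 with all libraries. The part of red cell content in the Kcnn4 values was not tested.

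Kcnh3, an ELK-type channel of forebrain neurons, was at 12.9, 12.3, 15.8 and 3.04 CPM in the controls and at 5.48 and 7.69 CPM in the Foxp1cKO libraries (log2 fold change -0.74, SE 0.58, adjusted p = 0.614). Kcna1, a Shaker-type channel of axons, was at 5.67, 4.54, 4.17 and 1.09 CPM against 1.59 and 4.23 CPM. For both, control 4 lay below either Foxp1cKO library and Foxp1cKO 1 lay below the other 3 controls. Kcng1, the highest silent modifier per kb, had control 4 and Foxp1cKO 1 as its lowest libraries too, at 23.4, 23.0, 23.8 and 11.4 CPM against 14.6 and 23.8 CPM.

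Kcnab1, an auxiliary beta subunit of Shaker-type channels, was at 0.452, 0.772, 1.66 and 0.368 CPM in the controls, at 0.556 CPM in Foxp1cKO 1 and at 4.94 CPM in Foxp1cKO 2 (log2 fold change 1.77, SE 0.85, adjusted p = 0.425). Kcnc4, a fast voltage-gated channel, was at 0.888, 1.92, 2.66 and 0.686 CPM against 3.32 and 1.82 CPM. Kcns2, a silent modifier, was at 0.194, 0.483, 0.727 and 0.140 CPM against 0.139 and 0.659 CPM. In all 3 control 3 was the highest and control 4 the lowest control, and the 2 Foxp1cKO libraries stood apart from each other.

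The 3 genes that the rule set aside are given for comparison. Kcne3, a KCNE subunit known from epithelia, was at 1.08, 0.917, 1.00 and 1.21 CPM in the controls and at 7.59 and 6.62 CPM in the Foxp1cKO libraries, and it passed the test (log2 fold change 2.75, SE 0.19, adjusted p = 0.00902). Kcnj8, an ATP-sensitive inward rectifier of mural cells, was at 3.83, 3.61, 3.01 and 2.77 CPM against 3.64 and 5.14 CPM (0.41, adjusted p = 0.480). Kcnk9, an acid-sensitive leak channel, was at 0.662, 2.45, 2.35 and 0.622 CPM against 2.60 and 0.857 CPM (0.18, adjusted p = 0.940). No member had an estimate as large as that of Kcne3, and the next largest, 2.09 for Kcnj4, rested on Foxp1cKO 2.

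Genes that work beside potassium channels were counted in the same way. Over all genes 49.3% of log2 fold changes were positive. Of the genes to which DESeq2 gave an adjusted p, it called 2.06% higher and 1.31% lower. Of 32 listed potassium transporters, pumps and channel partners 28 were in the table; none passed edgeR's test and 1 passed DESeq2's, 20 log2 fold changes were positive and 8 negative, and the median was 0.16. The smallest p values were those of Cntnap1, a protein of axon-glia contacts (log2 fold change 1.98, adjusted p = 0.191 in edgeR and 0.00033 in DESeq2), at 1.08 to 1.72 CPM in the controls and 2.96 and 7.57 CPM in the Foxp1cKO libraries, and of Atp1a4, a sodium pump subunit (-1.25, adjusted p = 0.258), at 0.34 to 0.45 CPM against 0.14 and 0.17 CPM. Of 33 voltage-gated sodium and calcium channel genes 28 were in the table; none passed in edgeR and 2 did in DESeq2, 23 were positive and 5 negative, and the median was 0.16. Scn11a, a sodium channel, was at 3.92 to 7.06 CPM against 10.9 and 8.33 CPM (0.84, adjusted p = 0.280 in edgeR and 0.0426 in DESeq2). Scn4b, a sodium channel beta subunit, was at 0.22 to 0.60 CPM in the controls, at 0.16 CPM in Foxp1cKO 1 and at 20.4 CPM in Foxp1cKO 2 (4.86, adjusted p = 0.258 in edgeR and 0.0425 in DESeq2).

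The 250 bases before the RefSeq start of Kcnj2 (GRCm38.p6, chr11:111065914-111066163, plus strand) are shown because this member had the smallest p. Matches to ACGTG, a form of the core of the hypoxia response element, are in capitals:
Kcnj2 promoter: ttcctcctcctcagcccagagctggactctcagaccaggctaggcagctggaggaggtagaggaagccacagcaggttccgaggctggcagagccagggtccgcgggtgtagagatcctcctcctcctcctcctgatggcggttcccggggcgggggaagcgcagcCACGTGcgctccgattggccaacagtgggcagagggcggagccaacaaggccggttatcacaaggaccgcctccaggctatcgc

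The capitals start 84 bases before the start site and hold a match on each strand, which overlap. Over windows of 300 bases read on both strands, 12 of 72 promoters of 52 members with an entry held the motif (16.7%), beside 19.6% of 32851 promoters in all, and neither of the Kcnip4 promoters did. A match of letters says nothing of binding.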

How the data were processed

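RNA-Seq libraries of E12.5 lateral cortex were analysed, 4 controls and 2 labelled Foxp1cKO. Per the labels and the study's methods, the authors prepared stranded libraries, used STAR for alignment to mm10 and HTSeq 0.9.1 (union mode) for gene counts, and left out genes with few counts. The deposited values used here are these raw counts. The deposited variance-stabilized values were not used. Members and lists were chosen with earlier results of these data known.

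The whole table was fitted on group with edgeR 4.0.16 (R 4.3.3; quasi-likelihood test, TMM scaling, Benjamini-Hochberg adjustment over 17068 genes, threshold 0.05). The study's model also held litter, which the labels do not give and which was not used here. Scripts were tested on simulated data. Log2 CPM has a prior count of 2. DESeq2 1.42.0, limma 3.58.1, other scalings, a filter, a replicate block, a neuron marker covariate and each library left out were alternatives. Annotation is GENCODE M21; counting error alone is covered by the floor of 3 counts. Labels name separate samples but not cultures or litters, so p-values measure the spread between these samples.

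Members were named with values if their unadjusted p was under 0.05, if they were among the 8 highest per kb, the 6 with the largest control SD or the 6 largest non-overlapping differences, or if they led their family per kb. Some of these are not reported here, although they stay in the counts and medians. Kcnq3, Kcnf1, Kcnt2 and Kcnq1ot1 were added after their values were seen. Of the marker lists, radial glia summed to 2574 to 3147 CPM in the controls and 3040 and 2935 CPM in the Foxp1cKO libraries, intermediate progenitor to 636 to 864 against 608 and 693, Cajal-Retzius to 355 to 443 against 409 and 536, meningeal to 94.1 to 566 against 151 and 342, and choroid plexus to 7.8 to 16.8 against 7.6 and 12.5.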

Additional observations from a re-analysis of the deposited data

Results flagged for a closer look

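In 3 of the 51 sets of 4 control values examined, 1 control stood far from the other controls by Dixon's criterion, which chance alone meets in about 1 of 20 sets. Kcnn4 was at 0.8889 CPM in control 4 and at 0.113 to 0.161 CPM in controls 1 to 3. Kcng1 was at 11.42 CPM in control 4 and at 23.0 to 23.8 CPM in the others. Kcne4 was at 0.549 CPM in control 1 and at 0.229 to 0.274 CPM in the others.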

How the results depend on the processing

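The number of members called was 0 higher and 0 lower in edgeR, also with DESeq2 size factors, total counts, a filter of 1 CPM in 2 libraries and limma. DESeq2's test called 3 higher and 1 lower, and the neuron marker covariate 1 higher. Replicate numbers are shared by the groups, but deviations of equal numbers correlated at -0.198 and 0.0157, and nothing in the labels pairs them: the replicate block called 0 members, and a block with the numbers crossed, chosen after seeing the data, 7 higher and 3 lower. Over all genes edgeR called 26, DESeq2 507, the covariate fit 279, the replicate block 0 (3027 at an unadjusted p under 0.05, against 2224) and the crossed block 1301. The cause of these differences was not tested.

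With 1 library left out, members called higher ran from 0 to 1 (Kcnn4, without control 4), members whose groups do not overlap from 9 to 30 (12.2% to 40.5%, beside 27.4% to 46.8% of all genes), and members beyond the control range from 8 to 20 (10.8% to 27.0%, beside 17% to 33.2%). The median log2 fold change kept its sign, from 0.10 to 0.29, in every alternative run for which it was taken. It was not taken for limma. Signs turned with total counts for Kcnh7 (0.0100) and with the replicate block for Kcna3 (0.033). Left-out libraries turned the sign of Kcnh7 (-0.088 to 0.055), Kcna1 (-1.30 to 0.13), Kcna3 (-0.14 to 0.059), Kcnd3 (-0.079 to 0.22), Kcnab1 (-0.57 to 2.60), Kcnn2 (-0.043 to 0.19), Kcnj4 (-0.014 to 2.89), Kcng1 (-0.50 to 0.22) and Kcns2 (-1.48 to 0.77).

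With 2 Foxp1cKO libraries, a two-sided exact permutation test of a single gene, with p as double the smaller tail, cannot go below 0.133, and 16 members under 1 CPM rest on few counts.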

Other observations

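Foxp1cKO 2 held several genes of neuronal excitability at levels not seen in the other 5 libraries. Scn4b was at 20.4 CPM there and at most at 0.60 CPM elsewhere, Kcnj4 at 3.10 against at most 0.521 CPM, Kcnab1 at 4.94 against at most 1.66 CPM, and Kcnip2 at 8.56 against at most 3.81 CPM. These 4 genes were picked after their values were seen, and with 1 library the difference has no replicate.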
